A study of Acipenser dabryanus with 12 samples.

Results

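The liver of Yangtze sturgeon (Acipenser dabryanus) shortly after a meal was compared with the liver shortly before it, in fish kept on a soybean oil diet and in fish kept on a fish oil diet. The comparison used the 4 liver libraries of a series of 12 and every Trinity gene that averaged 5 TPM or more over those 4 libraries. A Trinity gene is a cluster of assembled transcripts with an ID and no name, and TPM is transcript abundance per length, scaled to a fixed total in each library. The minimum kept 10480 of 280408 assembled genes, or 3.74%. Of these, 1554 (14.8%) would have fallen under the minimum without their highest library, so a part of the gene set entered through 1 liver. The files pair no ID with a gene name, so pathways and cell types are not named here.

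The liver is the first organ to receive nutrients absorbed from the gut, through the portal vein. After a meal it shifts from releasing fuel towards storing glycogen and packaging lipid, under the control of insulin and other hormones, and it makes most plasma proteins throughout. In fish, as in mammals, many of the enzymes of these routes are controlled through the amount of their mRNA.

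All fish were about 6 months old and had eaten their diet, whose fat source was either soybean oil, from a plant, or fish oil, which is rich in long-chain omega-3 fatty acids, once a day for 7 weeks. Livers were taken 1 h before the daily meal, from fish on the long-term feed, or 1 h after it. The files hold 1 library for each diet and time, while the labels speak of 3 samples per group and time and of 45 libraries in all, so a column may be 1 sample, a pool or an average. Each diet was given in 1 pond. Diet and pond therefore cannot be told apart, nor can the meal and the hour of the day. The soybean oil pair and the fish oil pair share no library.

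The soybean oil liver before the meal stood apart from the other 3. It held 29749 genes of at least 1 TPM, against 40932 in the soybean oil liver after the meal, 41124 in the fish oil liver before it and 46726 in the fish oil liver after it. Genes outside the 10480 compared took 6.4% of its TPM, against 10.2%, 10.3% and 12.9% in those livers. In it, 882 genes lay at least 2-fold below all 3 other livers, against 122, 94 and 145 in the others, where folds are on log2(TPM + 1). The fish oil liver after the meal had the most genes at least 2-fold above all others, 324, against 52 to 152. TPM keeps no sequencing depth, so the part of depth in these differences was not tested. Liver-enriched genes were the 1181 of at least 10 TPM in liver that were at least 8-fold above both brain and spleen. They took 57.6% of TPM before and 58.5% after the meal with soybean oil, and 49.1% and 48.8% with fish oil. The same livers defined this list, so its share is not an independent check of the tissue.

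**Figure D1:**
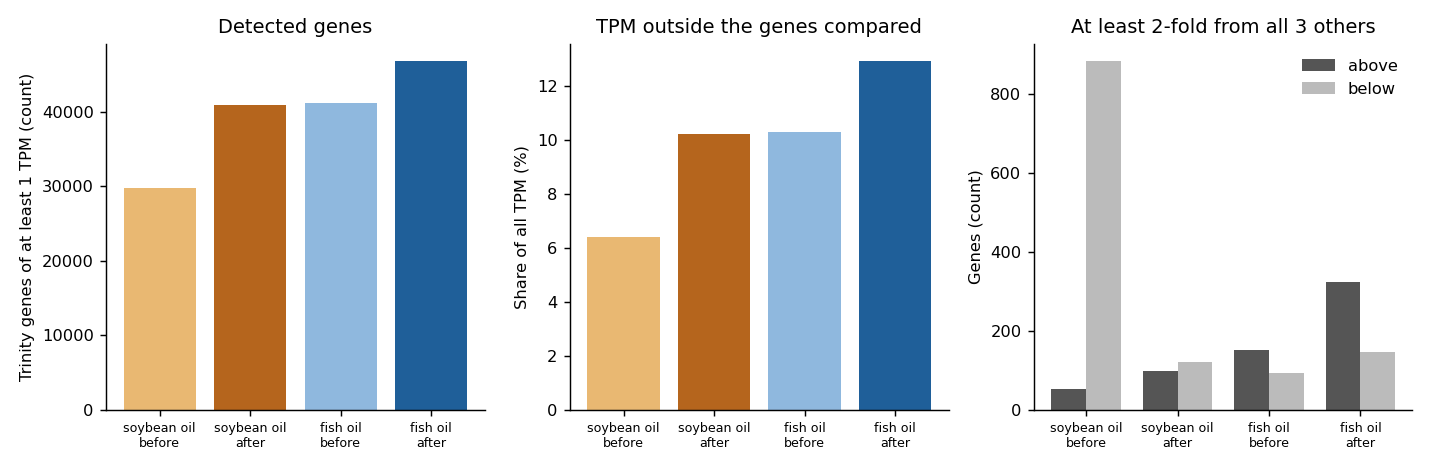
Bars give, for each of the 4 liver libraries, the number of Trinity genes of at least 1 TPM, the share of TPM held by genes outside the 10480 compared, and the number of compared genes at least 2-fold above or below all 3 other livers. The soybean oil liver before the meal has the fewest genes (29749) and the most genes below the others (882).

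The main question was which liver genes differ after the meal in both diets. At least 2-fold higher values after the meal in both pairs were found for 341 genes, or 3.25% of the genes compared, and at least 2-fold lower values in both for 76, or 0.725%. Another 195 genes (1.86%) were at least 2-fold apart in opposite directions. Most genes were steady, with 7630 (72.8%) within 2-fold in both pairs. No gene passed the test among the genes compared. In limma with diet and meal in the model, 0 of 10480 genes were called higher (0%) and 0 lower (0%), and 856 had an unadjusted p under 0.05. Of those 856, 667 were higher after the meal. The lowest adjusted p was 0.275. The test had 1 residual degree of freedom, the difference between the pairs, so 0 calls do not show that the meal had no effect. The calls depended on which genes entered the fit and on how their variance was modelled. With all 41810 genes of a mean of at least 1 TPM in it, limma called 1093 higher and 359 lower, 675 of these 1452 among the genes of 5 TPM or more. The same wider fit without the variance trend, added after the data were seen, called 0.

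Both libraries after the meal lay above both before it in 1885 genes (18%) and below both in 1410 (13.5%). Among the 341 genes higher in both pairs, 301 had no overlap between the before and after libraries. Among the 76 lower in both, 66 had none. Picking genes 2-fold apart in both pairs of these same livers favours such separation, so the last counts add no support.

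The excess of higher over lower genes depended on the scaling. After quantile normalization of the 4 livers, which gives each the same distribution of values, the numbers were 231 higher in both pairs and 119 lower, and 226 of the 341 genes and all 76 of the others remained at least 2-fold apart. The median gene of the soybean oil pair went from a log2 fold of 0.177 to -0.069, and that of the fish oil pair from -0.007 to -0.036. Without the soybean oil liver before the meal no soybean oil pair is left. Against the fish oil liver before the meal, 299 genes were then at least 2-fold higher in both livers after the meal and 256 at least 2-fold lower. The fold of the soybean oil liver is here taken across diets and ponds, so it mixes the meal with both. Both of these folds share 1 library, which links them, so the counts are not like those of separate pairs. This check was chosen after the data were seen.

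**Figure D2:**
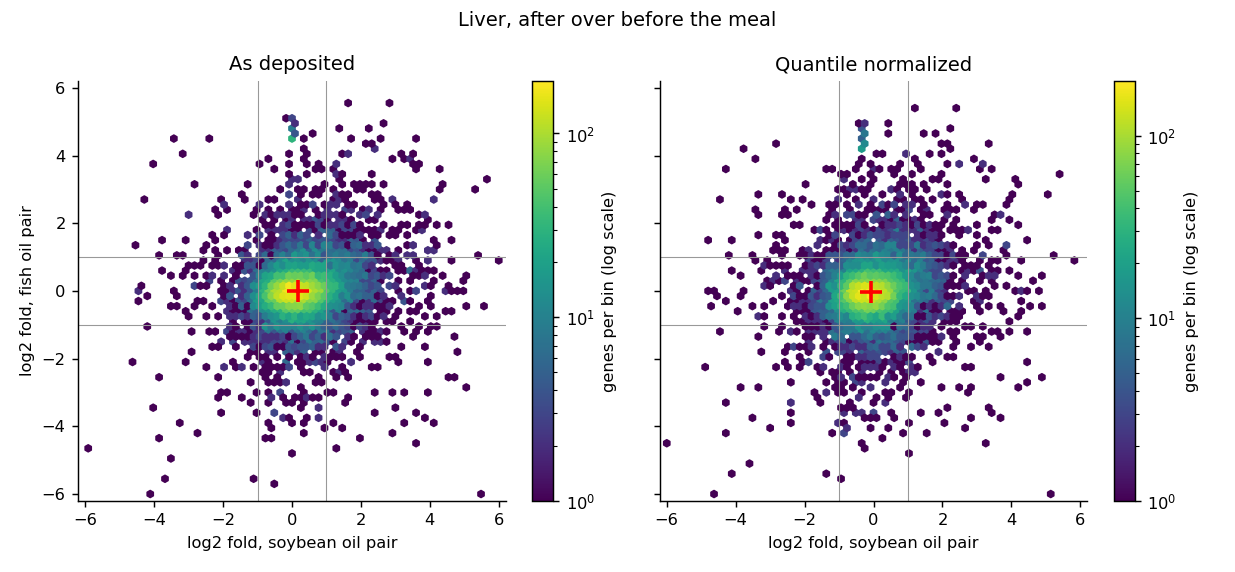
Each hexagon counts genes by their log2 fold after over before the meal in the soybean oil pair (horizontal) and the fish oil pair (vertical), on log2(TPM + 1), as deposited and after quantile normalization, with values beyond 6 drawn at 6. The red cross marks the median gene, which sits at 0.177 and -0.007 as deposited; the grey lines mark 2-fold, and as deposited 341 genes lie beyond them at the upper right against 76 at the lower left.

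Over all genes compared, the folds of the pairs were weakly correlated. Their 2-fold lists overlapped more than the shares over all genes, both in the same direction and in opposite directions. Pearson's r between the log2 folds of the pairs was 0.147 (Spearman's rho 0.141) over 10480 genes, which are not independent of each other. Pearson's r was 0.116 among the 7512 genes of 5 to 20 TPM and 0.262 among the 2183 of 20 to 100 TPM. It was 0.225 among the 625 of 100 to 1000 TPM and -0.017 among the 160 of 1000 TPM or more. Spearman's rho differed less, at 0.124, 0.155, 0.188 and 0.137 in these classes. Of the 818 genes at least 2-fold higher in the fish oil pair, 41.7% were also 2-fold higher in the soybean oil pair, beside 15.6% of all genes compared. Of the 1632 genes 2-fold higher in the soybean oil pair, 20.9% were so in the fish oil pair, beside 7.81% of all. The 76 genes lower in both were 20.2% of the soybean oil list and 12% of the fish oil list. Over all genes compared, 6.06% were 2-fold lower in the fish oil pair and 3.6% in the soybean oil pair. Of the 635 genes 2-fold lower in the fish oil pair, 148 were 2-fold higher in the soybean oil pair, beside 15.6% of all. Of the 377 genes 2-fold lower in the soybean oil pair, 47 were 2-fold higher in the fish oil pair, beside 7.81% of all. Overlap above the share of all genes was therefore not particular to agreement between the pairs, though it exceeded that share by more in the same direction.

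As deposited, abundant genes were least often 2-fold apart. Among genes of 5 to 20 TPM, 3.58% were at least 2-fold higher in both pairs and 0.772% lower. The shares were 2.84% and 0.733% at 20 to 100 TPM, 1.44% and 0.32% at 100 to 1000 TPM, and 0.625% and 0% at 1000 TPM or more. In the last class 88.1% of the 160 genes stayed within 2-fold in both pairs, against 70.2% of the 7512 genes of 5 to 20 TPM. Quantile normalization brought the share of higher genes at 5 to 20 TPM to 2.18%, at 20 to 100 TPM to 2.47% and at 100 to 1000 TPM to 1.92%, so the lowest class no longer had the largest share. The 160 most abundant genes took 63.6% of TPM before and 57.9% after the meal with soybean oil, and 53.6% and 51.6% with fish oil. Of the 10 genes with the highest mean, 3 were lower and 2 higher after the meal in both pairs, with log2 folds from -0.90 to 0.79 with soybean oil and from -0.37 to 0.32 with fish oil.

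**Figure D3:**
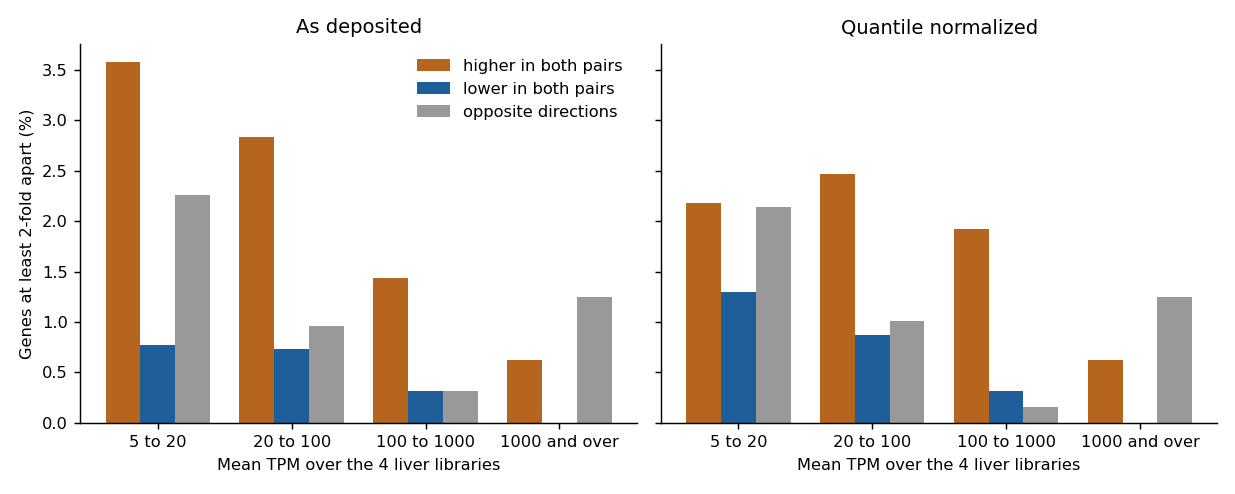
Bars give the share of genes, by mean TPM over the 4 livers, that were at least 2-fold higher in both pairs, lower in both, or apart in opposite directions, as deposited and after quantile normalization. The share of genes higher in both pairs goes from 3.58% in the lowest class to 0.625% in the highest as deposited, and is largest at 20 to 100 TPM (2.47%) after quantile normalization.

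Among genes of at least 100 TPM, 10 of 785 were at least 2-fold higher after the meal in both pairs and 2 were lower. Of all genes compared, 3.25% were higher and 0.725% lower. At any size of fold, lower values were the more common in this class as deposited. Both libraries after the meal lay above both before it in 82 of the 785 (10.4%) and below both in 189 (24.1%). The direction was the same under quantile normalization for those named here. Of the 10 higher genes, 9 were on the list of liver-enriched genes, which held 379 (48.3%) of all 785, and of the 2 lower genes 1 was. The same livers defined that list, and the difference was not tested. TRINITY_DN110144_c0_g1 stood at 12.7 TPM before and 63.6 TPM after the meal with soybean oil, and at 58.9 and 308 TPM with fish oil. Each pair was about the same size of step, 5.01-fold and 5.24-fold in TPM, on a level that was higher with fish oil, so the soybean oil value after the meal lay close to the fish oil value before it. Its log2 fold was 2.30 ± 0.30 (SE; limma adjusted p = 0.278). The other assembled gene of its component, the group of IDs that Trinity links, went from 1.53 to 5.35 TPM and from 4.94 to 60.9 TPM.

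TRINITY_DN133290_c1_g7 was at 44.98 and 213 TPM with soybean oil, and at 41.6 and 365 TPM with fish oil, before and after the meal. The before libraries were alike and both after libraries were well above them. Its log2 fold was 2.66 ± 0.34 (SE; limma adjusted p = 0.278), and no brain or spleen library held more than 0.99 TPM of it. TRINITY_DN134765_c0_g1 was at 173 and 77.4 TPM with soybean oil, and at 152 and 62.7 TPM with fish oil. TRINITY_DN128904_c1_g1 was at 175 and 81.1 TPM, and at 195 and 79.7 TPM. In both genes the after libraries lay under the before libraries with little spread within a state, at log2 folds of -1.21 ± 0.28 and -1.19 ± 0.28 (SE; limma adjusted p = 0.364 for each). The first was also present at 115 to 221 TPM in brain and at 120 to 222 TPM in spleen, and the second was at most 0.29 TPM there. These 4 genes were picked after their values were seen.

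By the rule for naming genes over the whole set, which takes the largest of the smaller folds of the pairs, the genes that came first were near 0 in one state. TRINITY_DN107831_c3_g5 went from 62.3 to 0 TPM in the soybean oil pair and from 24.5 to 0.02 TPM in the fish oil pair. TRINITY_DN136205_c1_g2 went from 71.8 to 3.01 TPM and from 115 to 0.13 TPM. Brain and spleen held at most 0.17 TPM of either, so within the series these transcripts were found nearly exclusively in livers before the meal. Their log2 folds were -5.32 ± 0.52 and -5.43 ± 0.61 (SE; limma adjusted p = 0.275 for each). The other IDs of their components summed to 0.11 to 0.73 TPM for the first and 0 to 3.61 TPM for the second, so the partner IDs were low after the meal as well.

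TRINITY_DN120684_c1_g1 was listed at 0 in both livers before the meal, and reached 11.8 TPM with soybean oil and 12.3 TPM with fish oil afterwards (log2 fold 3.70 ± 1.49, SE; limma adjusted p = 0.607). It was at 4.28 to 26.8 TPM in the brain and spleen libraries, before the meal too. TRINITY_DN112170_c1_g1 was likewise listed at 0 before and reached 11.5 and 21.8 TPM (log2 fold 4.08 ± 1.24, SE; limma adjusted p = 0.447), and its 1 partner ID went from 1.17 to 3.59 TPM with soybean oil and from 2.36 to 6.08 TPM with fish oil. In all, 18 genes were listed at 0 in both livers before the meal and above 0 in both after it, and 4 the other way. Whatever the other livers held, 71 of the 10480 genes were at 0 in both livers before the meal and 7 in both after it. Genes at 0 in both livers of one state entered the comparison only through the other state. Their level there was set by the minimum, so these counts add no support. For 7 of the 18 and 3 of the 4, the component as a whole was above 1 TPM in both livers in which the ID was at 0. In those components another ID was present while this one was listed at 0.

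**Figure D4:**
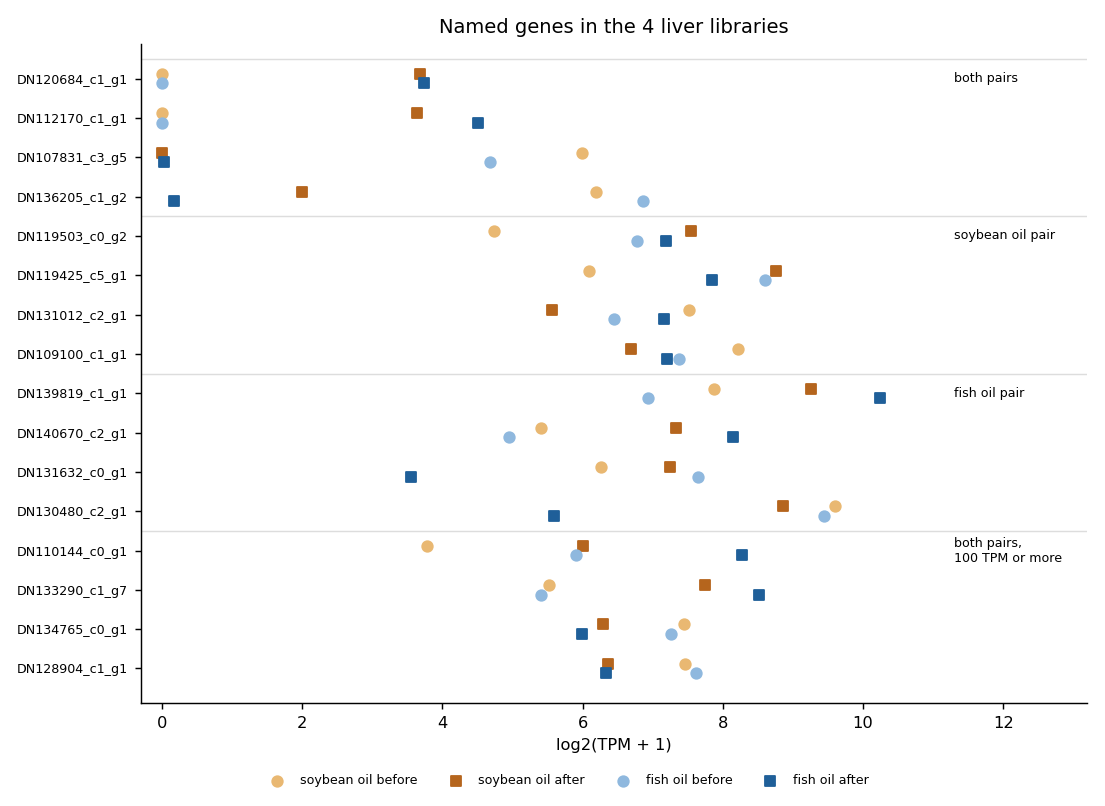
Points give log2(TPM + 1) in the 4 liver libraries for 16 named genes (IDs without their TRINITY prefix), circles before and squares after the meal, brown for soybean oil and blue for fish oil. In the lowest block, picked after the values were seen, squares lie right of the circles of the same diet in the first pair of genes and left of them in the second.

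In the soybean oil pair, 1632 genes (15.6%) were at least 2-fold higher after the meal and 377 (3.6%) at least 2-fold lower. After quantile normalization these were 963 and 713. As deposited, in 1484 of the 1632 (90.9%) the library before the meal was the lowest of all 4 livers, while the library after it was the highest of 4 in 651 (39.9%). The choice of these genes favours a low value before the meal, and that library was the lowest of 4 in 5150 (49.1%) of all genes compared. TRINITY_DN119503_c0_g2 was at 25.6 TPM before and 186 TPM after the meal with soybean oil, and at 109 and 146 TPM with fish oil. TRINITY_DN119425_c5_g1 was at 67.1 and 433 TPM with soybean oil and at 389 and 229 TPM with fish oil. In both genes, 3 of the livers held over 100 TPM and the soybean oil liver before the meal did not. Among lower genes, TRINITY_DN131012_c2_g1 was at 183 and 46.3 TPM with soybean oil, and at 86.7 and 143 TPM with fish oil. TRINITY_DN109100_c1_g1 was at 297 and 102 TPM with soybean oil and at 165 and 147 TPM with fish oil, and its level was higher outside the liver, at 536 to 1151 TPM in brain and 1316 to 2024 TPM in spleen. The limma adjusted p of these 4 genes over both pairs was 0.539 to 0.912.

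In the fish oil pair, 818 genes (7.81%) were at least 2-fold higher after the meal and 635 (6.06%) at least 2-fold lower, or 791 and 718 after quantile normalization. As deposited, the library after the meal was the highest of 4 in 686 of the 818 (83.9%), and the library before it was the lowest in 339 (41.4%). Over all genes compared, the library after the meal was the highest of 4 in 35.8%. TRINITY_DN139819_c1_g1 was at 121 TPM before and 1215 TPM after the meal with fish oil, and at 233 and 609 TPM with soybean oil. TRINITY_DN140670_c2_g1 stood at 30.0 and 281 TPM with fish oil, against 41.2 and 160 TPM with soybean oil. Both genes were higher after the meal in each diet, with no overlap between states, and were at most 4.3 TPM in brain and spleen. Their log2 folds over both pairs were 2.35 ± 0.48 and 2.56 ± 0.39 (SE; limma adjusted p = 0.321 and 0.296). TRINITY_DN130480_c2_g1 stood at 693 and 47.0 TPM with fish oil, against 777 and 464 TPM with soybean oil, lower after the meal in both but by very different amounts. TRINITY_DN131632_c0_g1 stood at 199 and 10.8 TPM with fish oil, against 75.6 and 151 TPM with soybean oil, so its pairs pointed in opposite directions.

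Some genes were seen in the fish oil liver after the meal alone. Of the genes compared, 48 were at 20.2 to 33.6 TPM there and at most at 0.1 TPM in the other 3 livers, and for 43 of the 48 no brain or spleen library exceeded 0.1 TPM. A gene near 0 in 3 livers enters the comparison only at about 20 TPM or more in the other, so their level was set by the minimum. The same count was 5 for the soybean oil liver after the meal, 2 for the one before it and 1 for the fish oil liver before the meal. Over all assembled genes, 7726 of at least 1 TPM were seen in the fish oil liver after the meal and at most at 0.1 TPM in the other livers, and they took 3.23% of its TPM. The shares were 2.01%, 0.79% and 1.62% for the corresponding genes of the soybean oil liver after the meal, the one before it and the fish oil liver before the meal. The part of sequencing depth, or of transcripts from another source, was not tested.

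Genes enriched in liver were higher after the meal in the soybean oil pair, at a median log2 fold of 0.277, and near 0 in the fish oil pair, at 0.014. The medians of all genes compared were 0.177 and -0.007. After quantile normalization those of the list were 0.182 and 0.042. Of the 1181 genes on the list, 62 (5.25%) were at least 2-fold higher in both pairs and 10 (0.847%) lower, beside 3.25% and 0.725% of all genes compared. Read the other way, 64.2% of the 341 higher genes had their highest tissue mean in liver, against 44.7% of the 76 lower genes and 41.8% of all genes compared. The list was defined on the same 4 livers averaged over states, and no test of it was made.

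Genes enriched in the other tissues were low in liver by definition, as the same 4 livers entered the choice of the lists. The 1711 brain-enriched genes (at least 10 TPM in brain and 8-fold above the other tissues) summed to 0.136% to 0.173% of TPM in the 4 livers, and 461 of them were at 0 in all 4. The 467 spleen-enriched genes summed to 0.621% before and 0.529% after the meal with soybean oil, and to 0.453% and 0.417% with fish oil, and 41 were at 0 throughout. At an enrichment of at least 4-fold the spleen list of 1020 genes was at 1.2% before and 1.13% after the meal with soybean oil. With fish oil it was at 2.35% before and 1.38% after, a step that the stricter lists did not show. At an enrichment of at least 16-fold the spleen list of 178 genes was at 0.0138% in both soybean oil livers, and at 0.0167% before and 0.0179% after the meal with fish oil. Only 37 brain-enriched and 48 spleen-enriched genes reached the minimum in liver. At least 2-fold higher in both pairs were 2 (5.41%) of the 37 and 2 (4.17%) of the 48. In each list 1 gene was lower (2.7% and 2.08%). Over all genes compared the shares were 3.25% higher and 0.725% lower. A share above that of all genes was thus not limited to the liver list, though these shares rest on 1 or 2 genes each. In whole tissue, fewer cells of a type and less RNA per cell cannot be told apart.

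Splitting of genes by the assembly was checked through components. Of the genes compared, 7619 (72.7%) shared a component with another ID. Of the 341 genes higher in both pairs, 123 had other IDs in their component that together averaged at least 1 TPM. Those other IDs, summed without the gene itself, were at least 2-fold higher in both pairs for 19 of the 123 (15.4%), beside 127 of 4278 (2.97%) of all genes compared, and lower for 0. Of the 76 lower genes, 22 had such partners, and these were 2-fold lower in both pairs for 0 of the 22 and higher for 0. Over all genes compared, partners were 2-fold lower in both pairs for 31 of 4278 (0.725%), so 0 of 22 tells nothing about the lower genes. For most of the 123 higher genes the partners did not share the 2-fold difference. Over sums per component, 340 were at least 2-fold higher and 68 lower in both pairs, and limma called 0 (unadjusted p under 0.05 in 926 of 11079).

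The same genes were followed in brain and spleen, whose libraries come from the same diets and times. Of the 10480 genes, 97 in brain and 58 in spleen were at least 2-fold higher after the meal in both pairs, and 249 and 82 were lower, beside 341 and 76 in liver. These genes were chosen on liver values, so the counts are not like for like. Among the 21514 genes of at least 5 TPM in brain itself, 589 (2.74%) were higher and 305 (1.42%) lower in both pairs. Among the 17803 of spleen, 226 (1.27%) were higher and 171 (0.961%) lower. The 341 liver genes had median log2 folds of 0.057 (soybean oil) and -0.095 (fish oil) in brain, where all genes compared had 0.02 and -0.098. In spleen the medians were 0.07 and -0.227, beside 0.039 and -0.36. In brain 3 of the 341 (0.88%) were at least 2-fold higher in both pairs and 8 (2.35%) lower, beside 0.926% and 2.38% of all genes compared. In spleen 8 (2.35%) were higher and 5 (1.47%) lower, beside 0.553% and 0.782%. The 76 lower genes had medians from -0.036 to 0.15. In brain 3 of them (3.95%) were lower and 3 (3.95%) higher in both pairs, beside 2.38% and 0.926% of all genes compared. In spleen 3 (3.95%) were lower and 1 (1.32%) higher, beside 0.782% and 0.553%. A limma test of the difference itself gave 0 calls (0%) for liver against brain and 0 (0%) for liver against spleen (3 residual degrees of freedom), with 648 and 446 of 10480 genes at an unadjusted p under 0.05 and a lowest adjusted p of 0.423 for each. No gene's meal difference can therefore be called particular to liver.

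**Figure D5:**
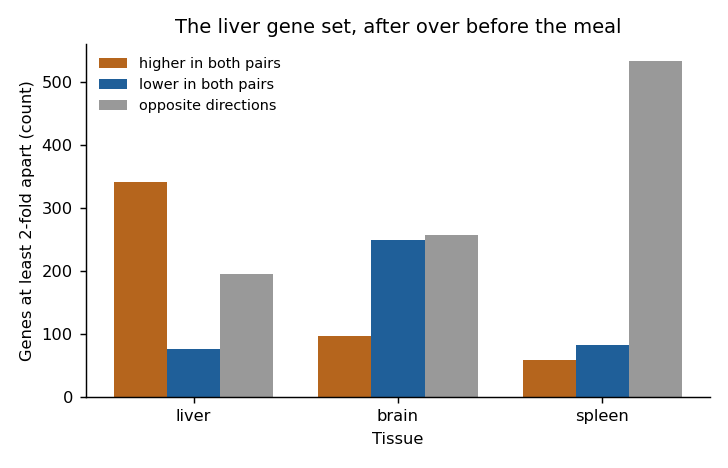
Bars count, among the 10480 liver genes, those at least 2-fold higher in both pairs after the meal, lower in both, or apart in opposite directions, in the libraries of each tissue on TPM as deposited. Liver has 341 higher and 76 lower genes, brain 97 and 249, and spleen 58 and 82 with 534 in opposite directions. The genes were chosen on liver values, so the brain and spleen bars do not describe those tissues' own genes.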

How the data were processed

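RNA was sequenced from brain, liver and spleen. The files hold 1 column per tissue, diet and time, where the labels name 3 samples per group and 45 libraries, and how the columns relate to these is not stated. Reads were cleaned and assembled de novo with Trinity, per the labels' protocols. The deposited values are TPM per Trinity gene with 2 decimals. The tool that made them is not given in the sources used here, and TPM gives neither depth nor counting error, so depth per library is unknown. Genes averaging 5 TPM or more over the 4 livers were analysed on log2(TPM + 1), which understates the folds of low genes, as deposited and after quantile normalization over these genes.

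The meal was tested with limma 3.58.1 (trend, robust prior, diet as the pair, Benjamini-Hochberg threshold 0.05) in R 4.3.3. The planned test named a count model only for counts, so limma was used. In the liver fit, each gene's variance combined 1 residual degree of freedom with a prior drawn from all genes fitted. The median prior had 4.869 degrees of freedom. The SE and p-values therefore lean more on other genes of like abundance than on a gene's own spread between libraries. The fit was run on data simulated from its own model, with the fitted spread and noise independent between genes. There it returned the effects put in and called the larger ones, with more false calls than the threshold allows. That setting lacks shifts shared by the genes of a library, so it does not show the fit's power or error rate in these livers. Tissue differences used all 12 libraries. Python 3.11.15, pandas 2.3.3, numpy 2.4.6, scipy 1.17.1 and matplotlib 3.10.9 made the summaries.

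Named genes are at most 2 higher and 2 lower per comparison: over both pairs the largest smaller fold at 5 TPM or more, and in 1 pair the largest fold at 100 TPM or more. Genes of at least 100 TPM named over both pairs were added later. Genes, lists and rules were chosen with earlier results of these data known. No reference sequence was used.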

Additional observations from a re-analysis of the deposited data

Results flagged for a closer look

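In 3 of the 16 named genes the pairs pointed in opposite directions, and the difference between the pairs was not tested, as each pair holds 1 library per state. For TRINITY_DN131632_c0_g1 the log2 fold was 0.99 with soybean oil and -4.09 with fish oil, a difference of -5.08. For TRINITY_DN119425_c5_g1 it was 2.67 and -0.76, a difference of -3.43. For TRINITY_DN131012_c2_g1 it was -1.96 and 0.71, a difference of 2.67. All 3 were named for a large fold in 1 pair, which favours a large difference. Of 22 groups of 4 liver values examined, 0 held a value far from the other 3 by Dixon's ratio at its 95% critical value.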

How the results depend on the processing

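Limma called 0 genes in either direction after quantile normalization, median centring, a pseudocount of 0.1, a minimum of 20 TPM or component sums. It also called 0 without trend, without a robust prior, with diet counted as spread and in the 12-library fit. Where the 10480 genes were kept, 560 to 868 had an unadjusted limma p under 0.05. The counts were 246 of 2968 at 20 TPM, 926 of 11079 component sums and 2922 of 89972 in the 12-library fit. Fits with 1 liver library left out had no diet in the model and left 1 library in a feeding state, so their calls are not given. With a minimum mean of 1 TPM limma called 1093 higher and 359 lower genes. Of these, 675 averaged at least 5 TPM, 74 averaged under 2 TPM and 304 were at 0 in both livers of one state. There the robust prior gave most genes no variance of their own. At that minimum the calls were 250 and 79 without the robust prior and 0 without trend, the latter fits chosen after the data were seen.

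Genes 2-fold higher in both pairs numbered 1252 of 41810 (2.99%) at a minimum of 1 TPM and 72 of 2968 (2.43%) at 20 TPM. The main setting had 341 of 10480 (3.25%). The lower ones numbered 119 (1.14%) after quantile normalization, 116 (1.11%) after median centring, and 392 (0.938%) and 18 (0.606%) at those minimums. In the main setting they numbered 76 (0.725%). Without the soybean oil liver before the meal, 256 genes were 2-fold lower in both livers after it than in the fish oil liver before it. That count is over folds that share 1 library, and the fold of the soybean oil liver crosses diets. Genes apart in opposite directions numbered 1139 of 41810 at 1 TPM and 25 of 2968 at 20 TPM, beside 195 of 10480 in the main setting. The soybean oil median was -0.069 after quantile normalization and 0.034 at 20 TPM. Pearson's r was 0.01 at 1 TPM and 0.252 at 20 TPM. Shares of higher genes, 60.52% with soybean oil and 49.16% with fish oil, were 45.73% and 46.62% after quantile normalization, 51.92% and 44.85% at 20 TPM, and 63.26% and 51.03% for component sums. At 1 TPM the fish oil share was 51.21%. The causes were not tested. The difference between liver and the other tissues had 0 calls after quantile normalization too. All 8 genes named over both pairs kept their direction and stayed without a call after quantile normalization and with a pseudocount of 0.1.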
